A study of Mus musculus with 8 samples.

Results

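The genes described here are 10 widely used markers of the mesothelium, the single layer of flat epithelial cells that covers visceral fat pads and lines the body cavities. They are Msln, Upk3b, Upk1b, Lrrn4 and Gpm6a, which encode proteins of the cell surface, the keratin genes Krt7, Krt8, Krt18 and Krt19, and the transcription factor gene Wt1. Members were taken by name: a row of the array counted where its platform annotation gave exactly 1 gene symbol and that symbol was on the list. Each of the 10 genes was found, each on 1 row, among 19310 genes on 20748 such rows, and the annotation gave the other 2598 of the 23346 rows several symbols or none. No filter on low values was applied.

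Epididymal white adipose tissue, the visceral fat pad beside the epididymis, came from male C57BL/6 mice 12 to 15 weeks old, on a standard diet in cycles of 12 h light and 12 h dark. Tissue was taken at Zeitgeber time 10, in hours from lights on. There were 4 arrays of the genotype labelled WT and 4 of the genotype labelled Rev-erb alpha KO, a knockout of the nuclear receptor gene Nr1d1. The labels do not say how the knockout allele was made, whether it was limited to a cell type, or whether replicates came from separate mice, so p-values measure only the spread between these samples, which may be technical.

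Mesothelial cells keep an epithelial character, with apical membrane proteins, simple-epithelium keratins and tight junctions, while also making vimentin and extracellular matrix. Mesothelin, the product of Msln, is a membrane-anchored glycoprotein that binds the mucin MUC16. WT1 marks the mesothelium of visceral fat from development onward and is also found in some progenitor cells of that fat. Rev-erb alpha is a circadian repressor that competes with ROR receptors for DNA elements around the half-site AGGTCA.

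All values are log2 expression levels as deposited. Each log2 fold change subtracts the mean of the 4 wild-type arrays from that of the 4 knockout-labelled arrays, and limma gave its standard error (SE) and 95% confidence interval. The threshold for calling a row was an adjusted p under 0.05 over all 20748 rows. Array medians lay between 5.90 and 5.95 log2, the range of values was 2.09 to 13.35, and array correlations over all rows were 0.994 to 0.996 within wild type, 0.994 to 0.997 within the knockout-labelled group and 0.989 to 0.994 across groups. The row of the targeted gene itself, Nr1d1, read 9.47, 9.11, 9.18 and 9.83 in wild type and 9.56, 9.28, 8.90 and 8.80 in the knockout-labelled arrays (log2 fold change -0.26, limma adjusted p = 0.479). The sources used here do not say whether that row lies in a deleted part, so it does not check the labels, and knockout-labelled is the term used for these arrays. Arntl, a clock gene that Rev-erb alpha represses, named after its values were seen, was at 5.02 ± 0.17 in wild type and 6.87 ± 0.15 in the knockout-labelled arrays (SD, n = 4 each; log2 fold change 1.85, limma adjusted p = 3.2e-05). Precision is limited by the number of arrays, 4 per group. In a whole fat pad, fewer cells of a type and less RNA per cell cannot be told apart.

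Of the 10 marker genes, Msln was called higher and none was called lower. Msln was 1.51-fold higher in the knockout-labelled fat, while the log2 fold changes of the other 9 lay between -0.31 and 0.10 and did not pass. Over all rows tested, 3.81% were called higher, 3.59% lower and 7.40% in either direction, so 1 of 10 is near the background. At an unadjusted p under 0.05 there were 5 of 10 members, Msln and 4 with lower values, against 21.9% of all rows. Of the 10 members, 7 had a log2 fold change below 0, and the median was -0.19, beside -0.01 over all rows, of which 48.0% lay above 0. Without Msln the median of the other 9 was -0.195. Without wild-type array 1 these medians were -0.08 and -0.10, and with knockout-labelled arrays 1 and 2 as the only ones of their group -0.07 and -0.09.

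**Figure D1:**
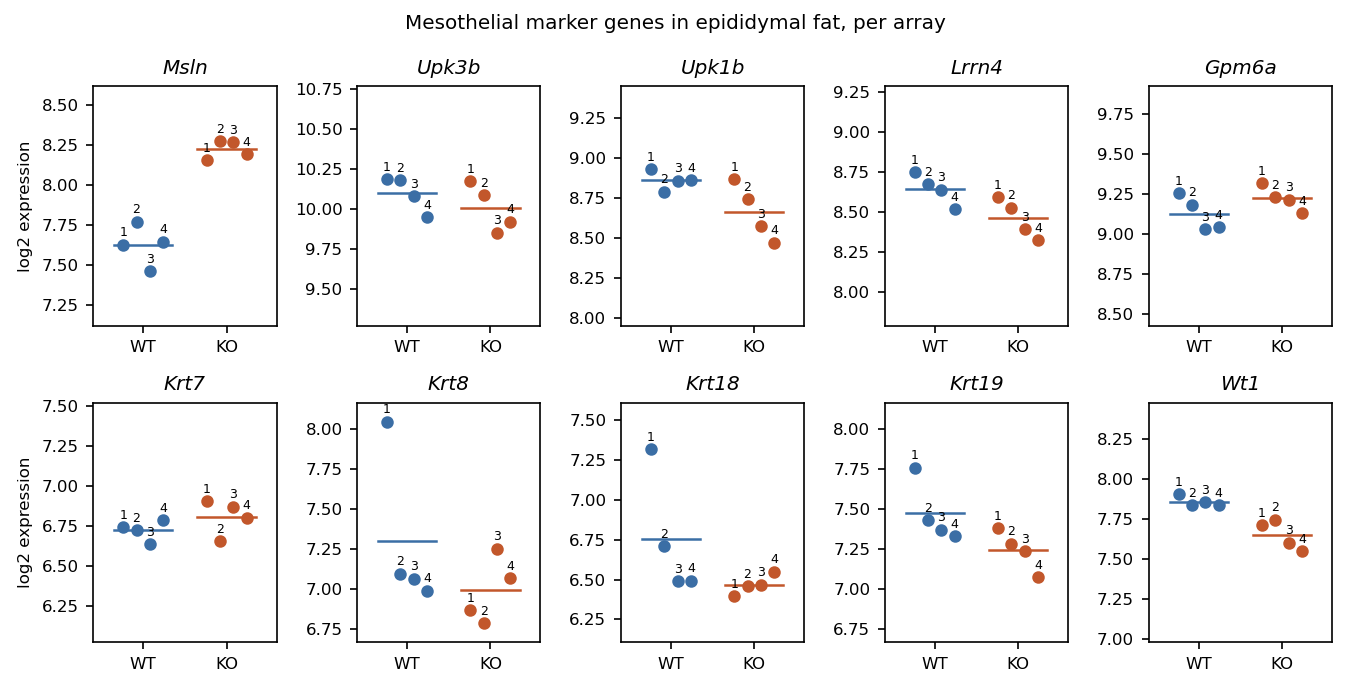
Log2 expression of the 10 mesothelial marker genes in each array; points are arrays, numbered by replicate, and lines are group means (n = 4 WT and 4 knockout-labelled). Every panel spans 1.5 log2 units. The Msln groups lie apart, the Wt1 groups lie apart by less, and wild-type array 1 stands above the rest in Krt8 and Krt18.

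Among the surface proteins, Msln read 7.63, 7.77, 7.46 and 7.64 log2 in wild-type arrays 1 to 4. Knockout-labelled arrays 1 to 4 gave 8.15, 8.28, 8.27 and 8.19. The lowest knockout-labelled array lay 0.38 log2 above the highest wild-type array, and the knockout-labelled values were the more tightly grouped. The means were 7.63 ± 0.13 and 8.22 ± 0.06 (SD, n = 4 each), the log2 fold change 0.60 (SE 0.07, 95% confidence interval 0.44 to 0.75, limma adjusted p = 0.000791). Without any single array it stayed between 0.54 and 0.65 with an adjusted p of 0.00134 to 0.00399, and it was 0.59 with knockout-labelled arrays 1 and 2 alone and 0.60 with arrays 3 and 4 alone. Msln was 1 of the 7.18% of rows whose knockout-labelled arrays all lay above wild type.

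Upk3b and Upk1b encode uroplakins, membrane proteins of urothelium that mesothelium also makes. Upk3b read 10.19, 10.18, 10.08 and 9.95 in wild type and 10.18, 10.09, 9.85 and 9.92 in the knockout-labelled arrays. Knockout-labelled arrays 3 and 4 lay below every wild-type array and arrays 1 and 2 within the wild-type range (log2 fold change -0.09, SE 0.08, 95% confidence interval -0.27 to 0.09, limma adjusted p = 0.596). Upk1b read 8.93, 8.79, 8.86 and 8.86 in wild type and 8.87, 8.74, 8.57 and 8.47 in the knockout-labelled arrays. Knockout-labelled arrays 2, 3 and 4 lay below every wild-type array and array 1 above 3 of them (-0.20, SE 0.08, interval -0.38 to -0.01, adjusted p = 0.201).

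Lrrn4, a leucine-rich repeat membrane protein gene, read 8.75, 8.67, 8.64 and 8.52 in wild type and 8.59, 8.53, 8.39 and 8.32 in the knockout-labelled arrays. The groups overlapped by the lowest wild-type array and the 2 highest knockout-labelled arrays (log2 fold change -0.19, SE 0.07, interval -0.35 to -0.02, limma adjusted p = 0.169). Gpm6a, a four-pass membrane glycoprotein gene best known from neurons, read 9.25, 9.18, 9.03 and 9.04 in wild type. The knockout-labelled arrays gave 9.32, 9.23, 9.22 and 9.13, an overlapping range (0.10, SE 0.07, interval -0.05 to 0.245, adjusted p = 0.468).

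Wt1, the transcription factor gene, came closest to the threshold among the 9. It read 7.90, 7.83, 7.85 and 7.83 in wild type and 7.71, 7.74, 7.60 and 7.55 in the knockout-labelled arrays. Every knockout-labelled array lay below every wild-type array, as in 8.16% of all rows. The means were 7.86 ± 0.03 and 7.65 ± 0.09 (SD, n = 4 each), the log2 fold change -0.21 (SE 0.06, 95% confidence interval -0.335 to -0.08, limma adjusted p = 0.0568). The call was made in 5 alternatives: without knockout-labelled array 2 (-0.24, adjusted p = 0.0472), without the dimmest 33.3% of rows (0.0387), with trend and robust variance estimates (0.0460), with knockout-labelled arrays 3 and 4 alone (-0.28, 0.0252), and at the looser threshold of 0.10. With any of the other 7 arrays left out it was not called (0.0649 to 0.143), and the pair of knockout-labelled arrays 1 and 2 gave -0.13 (0.313). The pass at 0.10 was fixed by the adjusted p of 0.0568. Arrays 3 and 4 hold the lowest knockout-labelled values of Wt1, 7.60 and 7.55, so the call with that pair follows in part from the choice of arrays.

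None of the 4 keratins passed (1 had an unadjusted p under 0.05 in limma), and wild-type array 1 was the highest array in 3 of them. Krt8 and Krt18 encode the keratin pair of simple epithelia, and Krt19 and Krt7 a further acidic and basic keratin of such cells. Krt8 read 8.04 in wild-type array 1 and 7.09, 7.06 and 6.99 in wild-type arrays 2 to 4, against 6.86, 6.78, 7.25 and 7.06 in the knockout-labelled arrays. Krt18 read 7.32 in wild-type array 1, then 6.71, 6.49 and 6.49, against 6.40, 6.46, 6.47 and 6.55. Krt19 read 7.76, 7.43, 7.37 and 7.33 in wild type and 7.38, 7.28, 7.23 and 7.07 in the knockout-labelled arrays. In each of these 3 genes wild-type array 1 was the highest of the 8 arrays and the other wild-type arrays overlapped the knockout-labelled ones.

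The log2 fold change of Krt8 was -0.31 (SE 0.21, limma adjusted p = 0.452) and -0.06 without wild-type array 1 (0.822). That of Krt18 was -0.28 (SE 0.16, adjusted p = 0.330) and -0.10 without that array (0.531), and that of Krt19 -0.23 (SE 0.10, 0.211) and -0.13 (0.389). Krt7 read 6.75, 6.72, 6.64 and 6.79 in wild type and 6.91, 6.66, 6.87 and 6.80 in the knockout-labelled arrays. It did not follow the other keratins in wild-type array 1, and its log2 fold change was 0.09 (SE 0.07, interval -0.06 to 0.23, adjusted p = 0.511).

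Wild-type array 1 also stood high in some other genes of epithelial cells, but not in all. Epcam, an epithelial adhesion gene, read 5.24, 4.63, 4.14 and 4.18 in wild-type arrays 1 to 4 and 3.84 to 4.23 in the knockout-labelled arrays. Relative to the mean of the other wild-type arrays, array 1 was higher by 0.92 log2 in Epcam, 0.66 in the desmosome gene Dsp, which is on the list of other mesothelial genes, 0.61 in the epithelial factor gene Elf3, 0.60 in the protease inhibitor gene Spint1, 0.51 in the E-cadherin gene Cdh1 and 0.35 in the tight junction gene Cldn7, genes chosen after their values were seen. The same difference was 0.995 in Krt8, 0.75 in Krt18 and 0.38 in Krt19, but 0.03 in Krt7, 0.14 in Lrrn4, 0.17 in Gpm6a, 0.12 in Upk3b, 0.09 in Upk1b and 0.06 in Wt1, and in Msln array 1 lay at the mean of the others. Epcam had a log2 fold change of -0.47 (limma adjusted p = 0.223) and of -0.24 without array 1. Array 1 was the highest of the 8 arrays in 7 of the 10 members, 9 of 23 other mesothelial genes, 7 of 14 general epithelial genes and 5 of 16 genes of epididymal epithelium, against 13.9% of all rows. It was so in 4 of 8 B cell and milky spot markers, 2 of 8 neural markers and 3 of 16 progenitor and fibroblast markers as well, and in 0 of 15 adipocyte and 0 of 13 endothelial markers. Among relatives of the members in the same gene families, 12 keratins included, the count was 1 of 22. For smooth muscle and pericyte markers it was 1 of 12, and for macrophage markers 1 of 14. Of the general epithelial list, Krt5 read 4.66, 4.66, 4.93 and 4.91 in wild-type arrays 1 to 4, and Grhl2 3.98, 3.84, 4.11 and 4.00. The part of array 1 in the keratin values was measured by leaving it out, and what sets it apart was not tested.

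**Figure D2:**
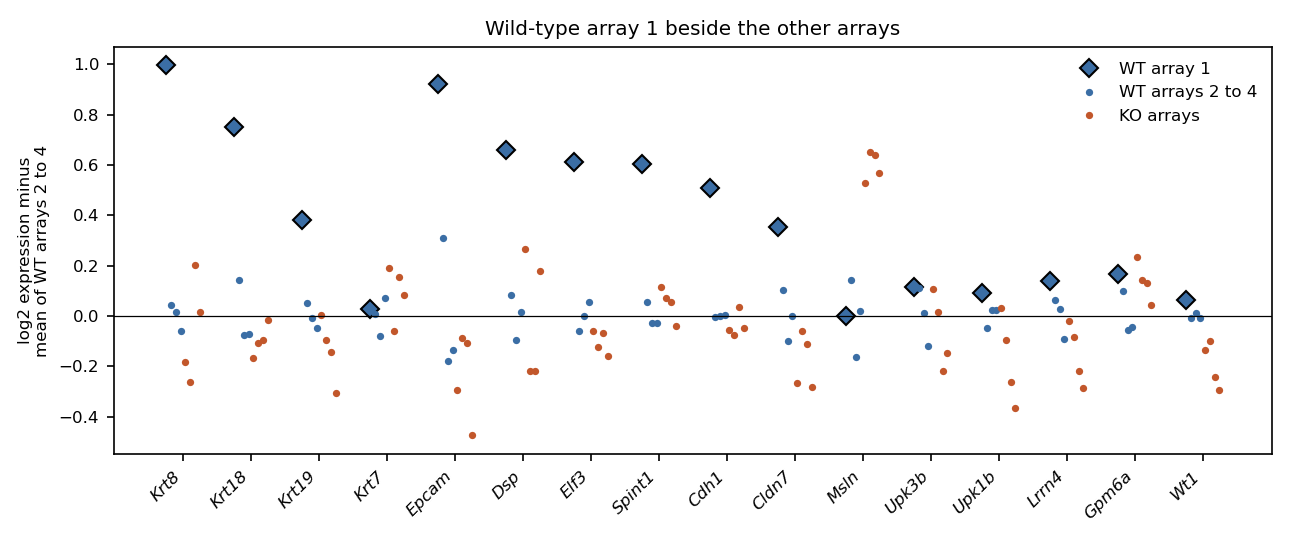
Log2 expression of each array minus the mean of wild-type arrays 2 to 4, for the 10 marker genes and 6 epithelial genes; diamonds are wild-type array 1, blue points the other wild-type arrays and orange points the 4 knockout-labelled arrays. The diamonds stand at 0.995 in Krt8, 0.75 in Krt18 and 0.92 in Epcam, and near 0 in Msln and Krt7.

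The 14 measured general epithelial genes had 0 calls in limma (4 at an unadjusted p under 0.05, lowest adjusted p = 0.124, median log2 fold change -0.09). Of this list the brightest rows were Cldn3 (-0.09, adjusted p = 0.419) and Cdh1 (-0.16, 0.432). The summed linear level of the 14 was 8.79 to 9.07 on the log2 scale in wild type and 8.74 to 8.84 in the knockout-labelled arrays. The 16 measured genes of epididymal epithelium had 0 calls (0 at an unadjusted p under 0.05) and a median of 0.01. Their group means ran from 2.98 for Gpx5 to 5.34 for Pax2, with Pax2 (-0.08, 0.558) and Lcn12 (0.02, 0.935) the brightest rows, and the summed level was 8.26 to 8.33 in wild type and 8.24 to 8.30 in the knockout-labelled arrays. Without detection calls, such low values do not show whether a gene was transcribed.

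Of the 10 members, Msln, Upk1b, Krt19 and Wt1 have no entry in the RefSeq table of promoters (GRCm38.p6) and were not searched. The promoters of the other 6 are in it, with a second start site for Gpm6a, and the 250 bases before each start were searched on both strands. They are shown for the 3 genes whose window holds TAGGTCA, the core of the monomer element that Rev-erb and ROR receptors bind, in capitals. TAGGTCA contains AGGTCA. Upk3b lies on the plus strand at chr5:136038246-136038495, Krt8 on the minus strand at chr15:102004343-102004592 and Krt18 on the plus strand at chr15:102027966-102028215, and each sequence reads 5′ to 3′ along its gene.
Upk3b: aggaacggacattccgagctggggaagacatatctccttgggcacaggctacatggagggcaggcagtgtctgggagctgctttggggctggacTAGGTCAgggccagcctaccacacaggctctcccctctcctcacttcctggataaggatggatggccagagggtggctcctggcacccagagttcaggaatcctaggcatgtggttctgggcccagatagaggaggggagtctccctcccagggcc
Krt8: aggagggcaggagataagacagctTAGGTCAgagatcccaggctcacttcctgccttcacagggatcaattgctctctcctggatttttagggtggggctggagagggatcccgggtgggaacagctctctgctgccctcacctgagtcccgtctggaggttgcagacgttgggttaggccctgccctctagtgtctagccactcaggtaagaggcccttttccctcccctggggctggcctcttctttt
Krt18: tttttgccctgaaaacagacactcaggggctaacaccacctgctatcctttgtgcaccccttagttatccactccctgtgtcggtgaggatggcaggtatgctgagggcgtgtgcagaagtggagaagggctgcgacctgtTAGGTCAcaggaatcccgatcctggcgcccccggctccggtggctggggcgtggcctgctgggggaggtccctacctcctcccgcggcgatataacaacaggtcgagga
The match began 156 bases before the start in Upk3b, 226 in Krt8 and 109 in Krt18, on the gene's own strand each time. TAGGTCA occurs in 2.23% of the 32851 windows of this length in the table, and AGGTCA, which Lrrn4 holds as well, in 14.0%. TGGGTCA (3.24% of windows) and the E-box CACGTG (6.02%) were in none of the windows searched for these 6 members, and the windows of Krt7 and Gpm6a held none of the 4 motifs. A match is a description of these letters: Upk3b, Krt8 and Krt18 were not called changed. Krt8 and Krt18 are neighbours with 0 protein-coding genes between them in that assembly, and Krt7 lies 23 protein-coding genes from Krt8.

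Whether Msln changed by more than the other members was tested on the difference, array by array, between the Msln row and each other row. Msln was set against them as the member called higher, so an excess was largely fixed by that choice. Msln minus Wt1 was -0.28, -0.06, -0.39 and -0.19 log2 in wild type and 0.45, 0.53, 0.67 and 0.65 in the knockout-labelled arrays. Msln minus Upk3b was -2.56, -2.41, -2.62 and -2.31 in wild type and -2.02, -1.81, -1.59 and -1.73 in the knockout-labelled arrays. For the 9 other members, the change in this difference ran from 0.50 for Gpm6a (SE 0.10) to 0.90 for Krt8 (SE 0.16), limma adjusted p from 3.66e-07 to 5.11e-05, and the groups did not overlap in any of the 9. Msln rose more than 97.1% of all other rows by this test and its difference did not overlap in 92.6%, so the 9 members do as nearly every row does. These differences share the Msln values and are not independent of each other. The fit pools variances over rows that all hold the same Msln values, so it treats their spread as better known than it is. The adjusted p-values of this test are therefore too small, and the 97.1% that rests on them is too high. The overlap of the groups does not depend on these p-values.

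The rows whose profile over the 8 arrays was closest to that of Msln, each centred on its own mean, were Sulf1, which encodes an extracellular sulfatase of heparan sulfate, the transcriptional coregulator gene Zmiz1, the lysosomal protease gene Ctsl, the synuclein gene Sncg and Prr13. Their root mean square differences from Msln were 0.050, 0.070, 0.073, 0.074 and 0.077 log2. Sulf1 read 7.69, 7.82, 7.50 and 7.62 in wild type and 8.22, 8.27, 8.18 and 8.24 in the knockout-labelled arrays, so that, as in Msln, wild-type array 2 was the highest and array 3 the lowest of its group. In the knockout-labelled group array 2 was the highest in both genes, but the lowest was array 3 in Sulf1 and array 1 in Msln. The rows were picked for closeness to Msln, so a shared order and similar changes follow largely from that choice. The log2 fold changes of Zmiz1, Ctsl, Sncg and Prr13 were 0.59, 0.63, 0.47 and 0.55. With the mean of a gene's rows that of Zmiz1 was smaller, 0.324, though still called. Among the members the difference from the Msln profile ran from 0.27 for Gpm6a, rank 2997 of the 20747 other rows, to 0.56 for Krt8, rank 20410.

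Counts over the 10 members, Msln included, differed between arrays. In wild type, array 1 lay above the group mean in 9 of 10 members and array 3 in 0 of 10. In the knockout-labelled group, arrays 1 and 2 were above the group mean in 7 of 10 members each, array 3 in 3 and array 4 in 2. The same counts were not made over all rows, so whether they are particular to the members is not known. Both of arrays 1 and 2 lay above both of arrays 3 and 4 in Upk3b, Upk1b, Lrrn4, Gpm6a, Krt19 and Wt1, 6 of 10 members, against 20.1% of all rows. The pairs were taken from earlier results of these data, and no label gives them as a batch.

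Against wild type, the pairs gave different values for several members. Upk3b was at 0.03 with knockout-labelled arrays 1 and 2 alone and at -0.21 with arrays 3 and 4 alone, Lrrn4 at -0.09 and -0.29, and Krt19 at -0.14 and -0.32. Upk1b was at -0.05 and -0.34, and with arrays 3 and 4 alone it was called lower (limma adjusted p = 0.0203). Those arrays hold the lowest knockout-labelled values of Upk1b, so that call follows in part from the choice of pair. With all knockout-labelled arrays Upk1b was not called (limma adjusted p = 0.201). Krt8 went the other way, with -0.47 and -0.14. The difference between the pairs was not tested.

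**Figure D3:**
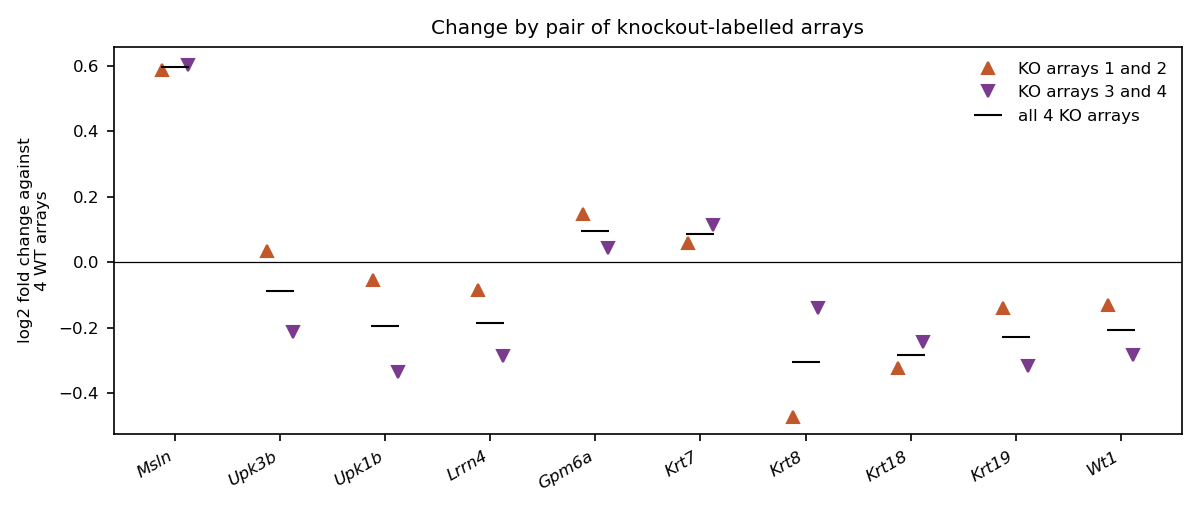
Log2 fold change of the 10 marker genes against the 4 wild-type arrays with knockout-labelled arrays 1 and 2 alone (upward triangles), 3 and 4 alone (downward triangles) and all 4 (bars). Msln is at 0.59 and 0.60 with either pair, while Upk3b, Upk1b, Lrrn4, Krt19 and Wt1 are lower with arrays 3 and 4.

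Other genes listed for mesothelium moved in both directions. Of 23 measured of the 25 listed, 4 were called higher and 1 lower, against 3.81% and 3.59% of all rows. Of the 23, 8 lay above and 15 below 0 (median log2 fold change -0.03, beside -0.01 over all rows). Which cells of the pad these changes came from was not tested. Sulf1 rose by 0.57 (SE 0.07, limma adjusted p = 0.00103), Efemp1, which encodes the matrix protein fibulin-3, by 0.29 (SE 0.06, 0.0247), the extracellular superoxide dismutase gene Sod3 by 0.24 (SE 0.06, 0.0300), and the tight junction gene Cldn15, named here beyond the rule for named genes, by 0.22 (SE 0.06, 0.0431). Thbd, which encodes the anticoagulant receptor thrombomodulin of mesothelium and endothelium, fell by 0.40 (SE 0.09, 0.0194). The summed linear level of the 23 was 13.54 to 13.64 log2 in wild type and 13.61 to 13.69 in the knockout-labelled arrays, overlapping ranges. In that sum the brightest rows weigh most, Cav1 (wild-type mean 12.18) and Efemp1 (10.96). The mean log2 level was 7.74 to 7.89 in wild type and 7.795 to 7.86 in the knockout-labelled arrays, also overlapping.

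Sulf1 kept its call with any array left out (adjusted p 0.00133 to 0.00547). The calls of Efemp1, Sod3, Cldn15 and Thbd depended on single arrays. With 1 array left out, Sod3 passed only without knockout-labelled array 1 (0.0323), Cldn15 only without knockout-labelled array 3 (0.0393), and Efemp1 in 3 such fits (0.0208 to 0.0458), missing the threshold when the array left out was wild-type 3 or 4 or knockout-labelled 2, 3 or 4 (0.0523 to 0.0732). Thbd missed it when wild-type array 2 (0.0550) or knockout-labelled array 4 (0.0595) was left out. Sod3 and Cldn15 were also lost with the replicate number as a block (0.0828 and 0.105).

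Some further genes of this list, chosen after their values were seen, did not pass, only part of them known for a narrow mesothelial pattern. The zinc finger gene Bnc1 was at -0.05 (limma adjusted p = 0.795), Nkain4 at -0.05 (0.724), the Wnt agonist gene Rspo1 at -0.02 (0.902) and the retinoic acid synthesis gene Aldh1a2 at -0.12 (0.217). The protease inhibitor gene Slpi (-0.26, 0.0720) and Gas1 (-0.23, 0.0766) had non-overlapping lower values. Of the 23 genes of the list, 3 had all knockout-labelled arrays below wild type and 4 had all above, against 8.16% and 7.18% of all rows. The binding protein gene Igfbp5 was at 0.20 (0.250) and passed without knockout-labelled array 1 (0.295, adjusted p = 0.0434). Dsp was at -0.16 (0.640) and Cav1, the brightest row of the list together with Efemp1, at -0.03 (0.750).

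**Figure D4:**
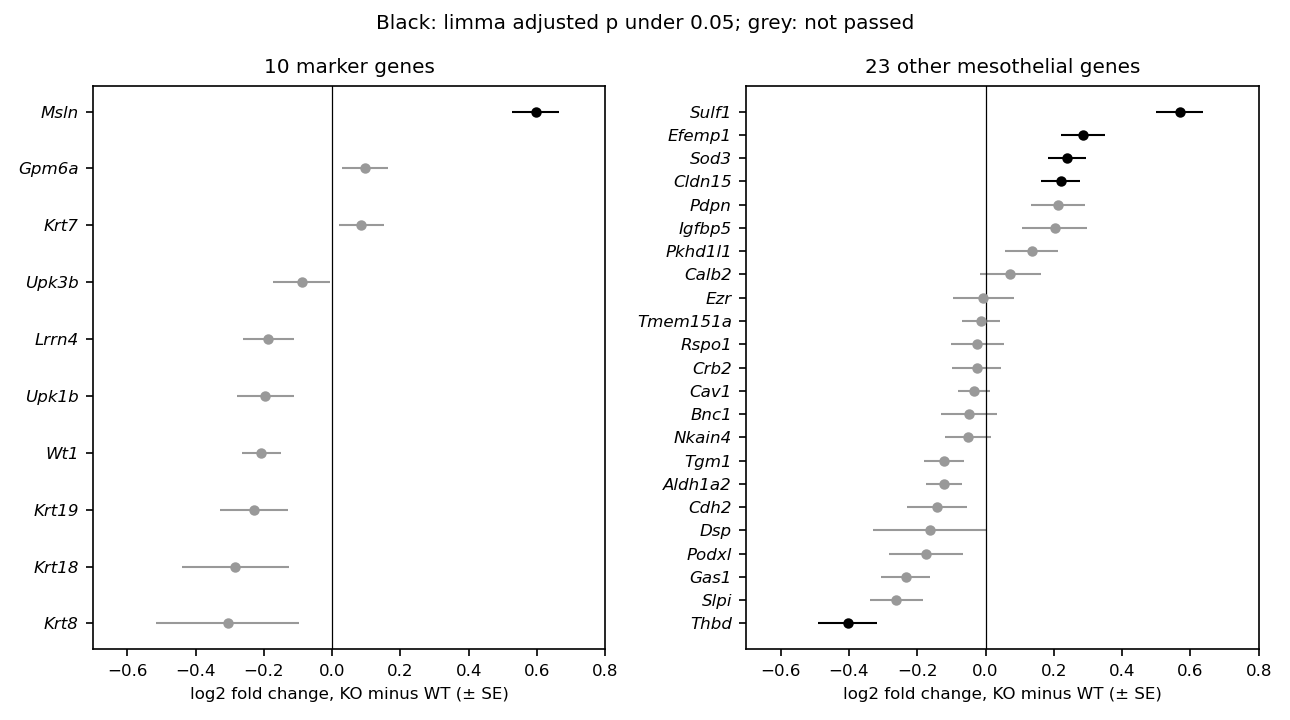
Log2 fold change, knockout-labelled minus wild type, with its SE (bars), for the 10 marker genes and 23 other mesothelial genes; black points passed limma at an adjusted p under 0.05 over all rows, grey points did not. Msln at 0.60 and Sulf1 at 0.57 lie farthest to the right and Thbd at -0.40 farthest to the left.

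Relatives of the members in the same gene families showed 2 increases and 1 decrease among 22 measured of 23, against 3.81% and 3.59% of all rows. Lrrn4cl, an Lrrn4-like membrane protein gene, rose by 0.50 (SE 0.11, limma adjusted p = 0.0268), and Gpm6b, the paralogue of Gpm6a, by 0.30 (SE 0.08, 0.0431), while Lrrn1 fell by 0.36 (SE 0.07, 0.0131). The median log2 fold change was 0.05. The 12 keratins of this list had 0 calls (1 at an unadjusted p under 0.05, log2 fold changes -0.08 to 0.12) and the 4 uroplakins 0 calls (0 at an unadjusted p under 0.05, -0.08 to 0.09). Lrrn1 passed with each array left out in turn. Lrrn4cl did not pass when wild-type array 4 or any of the knockout-labelled arrays was left out (0.0505 to 0.0721). Gpm6b passed only without wild-type array 2 (0.0461) or knockout-labelled array 1 (0.0478), ranged up to 0.106 otherwise, and missed the threshold with the replicate block (0.103). The summed level of the list was 9.77 to 9.86 log2 in wild type and 9.94 to 9.97 in the knockout-labelled arrays, ranges that did not overlap. In that sum the brightest rows weigh most, Lrrn4cl and Gpm6b, the same that were called higher. The mean log2 level was 5.03 to 5.05 in wild type and 5.08 to 5.10 in the knockout-labelled arrays, a small shift that holds the same rows.

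Markers of the other cells of the pad were read beside the members, since Msln and these lists come from the same RNA. Their counts stand against 3.81% of all rows called higher and 3.59% called lower. Adipose progenitor and fibroblast markers had 6 increases and 0 decreases among 16 (median 0.29, summed level 13.05 to 13.28 log2 in wild type and 13.22 to 13.35 in the knockout-labelled arrays, overlapping, and mean log2 level 7.77 to 8.08 and 8.19 to 8.43, not overlapping), led by Col1a1 (0.71), Mfap5 (0.84), Anxa3 (0.51) and Cd55 (0.56), while the brightest rows Dcn (-0.14) and Cd34 (-0.02) did not pass. Endothelial markers had 3 increases, Cldn5 (0.99), Lyve1 (0.53) and Pecam1 (0.20), among 13 (median 0.11, summed level 12.08 to 12.20 and 12.28 to 12.42 and mean level 7.95 to 8.05 and 8.15 to 8.21, no overlap in either), with Cdh5 (0.19) and Emcn (0.18) not passing. Of 12 smooth muscle and pericyte markers Acta2 (0.89) and Rgs5 (0.66) rose and Tagln (-0.29) fell (median -0.05, summed level 11.19 to 11.42 and 11.61 to 12.10, no overlap, but mean level 6.71 to 6.83 and 6.77 to 6.96, overlapping). The part of these cells in the Msln change was not tested.

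Some of these calls depended on single arrays. Pecam1, an endothelial junction protein gene, passed only without knockout-labelled array 2 among the 8 fits with 1 array left out (limma adjusted p 0.0724 to 0.112 in the others), and not after quantile normalization (0.0712) or with the replicate block (0.0925). Lyve1, a hyaluronan receptor gene of lymphatic endothelium, passed only without wild-type array 2 (0.0537 to 0.0937 in the others), so that of these 3 genes Cldn5 alone passed in 6 of the 8 fits. Tagln, a smooth muscle actin-binding protein gene, passed only without knockout-labelled array 1 or 2 (0.0681 to 0.102 in the others), and not after quantile normalization (0.0510), median centring (0.0570) or with the replicate block (0.0867). Cd55, a complement regulator gene, missed the threshold without wild-type array 2 (0.0600), wild-type array 3 (0.0572), knockout-labelled array 3 (0.0760) or knockout-labelled array 4 (0.0881), and with the replicate block (0.0604). Cldn5, Acta2, Rgs5, Col1a1, Mfap5 and Anxa3 passed with each array left out in turn.

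Mature adipocyte markers had 2 increases, Lep (0.75) and Aqp7 (0.39), and 1 decrease, Cebpa (-0.37), among 15 (median -0.07, summed level 15.90 to 16.00 log2 in wild type and 15.94 to 15.98 in the knockout-labelled arrays), and the brightest rows Car3 (-0.04) and Retn (-0.08) did not pass. Of 14 macrophage markers Cd14 (-0.38) fell (median 0.09, summed level 11.86 to 12.34 and 12.14 to 12.43), and Lyz2 (0.12) and C1qb (0.10) did not pass. Of 8 B cell and milky spot markers, genes listed for the lymphoid clusters under visceral mesothelium, 0 were called by limma (0 at an unadjusted p under 0.05, median 0.04, summed level 10.73 to 11.22 and 10.81 to 11.42), with Cxcl13 at 0.43 (adjusted p = 0.679) and Ebf1 at 0.08. Ebf1 weighs most in that sum (wild-type mean 10.36, next Cxcl13 at 8.28), and which cells of the pad gave its signal was not tested. Of 8 neural and Schwann cell markers, which bear on Gpm6a, Uchl1 (0.52) rose (median -0.01, summed level 8.29 to 8.42 and 8.35 to 8.43), and Mbp was at -0.03. The same sum over the 10 members was 11.67 to 11.92 log2 in wild type and 11.62 to 11.83 in the knockout-labelled arrays, overlapping ranges.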

How the data were processed

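Total RNA was extracted with TRIzol and RNeasy columns and labelled with biotin for Affymetrix whole-transcript arrays, per the labels' protocols. The deposited values are log2 expression, 1 per row and array, a scale read from the values. The tool affy is named in the submitters' processing notes. Background correction, normalization and filters are not given in the sources used here. Processing that aligns arrays would hide a shift shared by most rows. Samples were grouped by the genotype in their labels.

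Rows with exactly 1 gene symbol (20748) entered a two-sided linear model of the 2 genotypes with moderated variances (limma 3.58.1, R 4.3.3), with no other term, with Benjamini-Hochberg adjustment over all of them. The same fit was run on the Msln row minus each other row, so the variances pooled there all share the Msln values. The script was tested on simulated data. Summed levels add a list's brightest rows on the linear scale. The members and gene lists were chosen with earlier results of these data known.

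Named were the 10 members, from each list up to 4 members that passed with the smallest p and the 2 brightest rows, Nr1d1, and the 5 rows closest to Msln; others are said to be chosen after their values were seen. Alternatives were quantile normalization, median centring, a test of all 23346 rows, a test without the dimmest 33.3%, trend and robust eBayes, the replicate number as a block, array weights, each array left out, either pair of knockout-labelled arrays, a 1.5-fold minimum, an adjusted p under 0.10 and the mean of a gene's rows. Each member has 1 row, so no other row could be checked. No pair of arrays held identical values.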

Additional observations from a re-analysis of the deposited data

Results flagged for a closer look

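In the groups of 4 arrays, 65 named genes were checked for an array whose gap to the nearest other is above Dixon's 95% critical share of the group's range. Of 130 groups, 7 held such an array, and chance gives about 1 in 20; over all rows tested it was 5.54% of wild-type groups and 5.14% of knockout-labelled groups.

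Among the members, Krt8 stood apart at 8.04 in wild-type array 1, with the other wild-type arrays at 6.99 to 7.09. The same array was the high one for Cdh1 (5.89, others 5.37 to 5.38), Elf3 (5.28, others 4.61 to 4.72), Spint1 (5.85, others 5.21 to 5.30) and Mbp (6.84, others 6.69 to 6.71). Elf3 and Spint1 were named after their values were seen, for being high in that array, so the number of such genes is no measure of how common the pattern is. Anxa3 was low in wild-type array 3 (7.99, others 8.29 to 8.32), and Zmiz1 high in wild-type array 2 (8.77, others 8.53 to 8.57).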

How the results depend on the processing

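Msln was the only member called higher in all 20 alternatives, with a log2 fold change of 0.54 to 0.65. No member was called lower in the fit reported, and 1 was without the dimmest 33.3% of rows, with trend and robust eBayes and at an adjusted p under 0.10 (Wt1 each time), 2 with knockout-labelled arrays 3 and 4 alone (Wt1 and Upk1b), and 0 to 1 with single arrays left out. Knockout-labelled arrays 3 and 4 hold the lowest values of Wt1 and Upk1b in their group, so the calls with that pair follow in part from its choice. The excess of Msln over the other 9 members was largely fixed by choosing the member that rose. That excess, called with p-values that are too small because all rows of that fit share the Msln values, held for 9 in every alternative but the 1.5-fold minimum. There it held for 7. Of all rows, 1536 were called (791 higher, 745 lower); with single arrays left out the counts were 913 to 1418 (499 to 747 higher, 414 to 671 lower; 972 without wild-type array 3, 1004 without wild-type array 4 and 913 without knockout-labelled array 4), with knockout-labelled arrays 1 and 2 alone 701 (403 and 298), with the 1.5-fold minimum 326 (210 and 116), and at 0.10 they were 2552 (1236 and 1316). Replicate numbers did not pair the arrays (correlations of same-numbered deviations -0.0342, 0.134, -0.00148 and -0.0674; 1 of 4 wild-type arrays matched its own number best). With the replicate block 1105 rows were called, and Msln stayed called (adjusted p = 0.00464).

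Signs turned for values that did not pass. With knockout-labelled arrays 1 and 2 alone Upk3b was at 0.0326, Bnc1 at 0.0368, Nkain4 at 0.0392, Rspo1 at 0.00329 and Emcn at -0.0107; with arrays 3 and 4 alone Cd34 was at 0.0417, Cxcl13 at -0.156, Lcn12 at -0.0176 and Mbp at 0.0308; with median centring Cd34 was at 0.00241. With single arrays left out, the ranges that crossed 0 were Cd34 (-0.0533 to 0.0231), Dsp (-0.25 to 0.00292), Mbp (-0.0522 to 0.00571), Rspo1 (-0.0777 to 0.0414), Spint1 (-0.159 to 0.0514), Bnc1 (-0.108 to 0.0123), C1qb (-0.0121 to 0.173), Lcn12 (-0.0748 to 0.105) and Cxcl13 (-0.0255 to 0.848). The causes were not tested. Other scalings moved the median of all rows by under 0.1 log2. Without detection calls, dim rows have no bound.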

Other observations

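The genes in which wild-type array 1 exceeded the other wild-type arrays most were not mesothelial markers. They were chosen for that difference and are given as values. Plet1 read 8.78, 6.75, 5.36 and 6.08 log2 in wild-type arrays 1 to 4 and 5.78 to 6.42 in the knockout-labelled arrays. Mmp7, an epithelial matrix protease gene, read 7.76, 6.01, 4.64 and 5.13, against 4.56 to 4.98. Lcn2, a secreted iron-siderophore binding protein gene, read 10.27, 8.79, 7.59 and 7.73, against 7.41 to 7.92. Prom1, a membrane protein gene of apical protrusions, read 6.52, 5.32, 4.13 and 4.50, against 4.16 to 4.49. Sntn and Rsph4a, genes of motile cilia, read 6.21 and 5.36 in wild-type array 1, 4.38 and 4.00 in array 2, and up to 3.93 and 3.65 in the knockout-labelled arrays. These 6 are among the 15 genes with the largest difference. In the 15, chosen for it, array 1 was the highest of the 8 arrays, and array 2 was the second highest in 13 but not in Cish and Calml3. Limma called none of the 15 changed between the genotypes (adjusted p 0.237 to 0.591). Msln read 7.63 in wild-type array 1 and 7.77 in array 2, beside 7.46 and 7.64 in arrays 3 and 4.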
